A study of Mus musculus with 6 samples.

Results

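Transcripts of 8 genes of the Ugt2 family, Ugt2b1, Ugt2b5, Ugt2b34, Ugt2b35, Ugt2b36, Ugt2b37, Ugt2b38 and Ugt2a3, were followed in mouse liver by RNA sequencing. The genes were taken by name, and all 8 were found among the 58601 rows of the deposited table. The family was picked because Ugt2b37 had been seen higher with lycorine in these same libraries, so the differences between lycorine and vehicle in these 8 genes are given as a description, without a test. The groups were 3 libraries from lycorine-treated and 3 from vehicle-treated mice, and every library carried the same genotype, labelled Mdr2-/- and Mdr2 knockout. Mdr2 is Abcb4, the canalicular transporter that moves phosphatidylcholine into bile, and its loss leads to cholestatic liver injury. The protocol names the animals Mdr2-HKO, an abbreviation that the labels do not explain, with an age of 8 weeks at the start and 2 weeks of treatment. Lycorine is an alkaloid of Amaryllidaceae plants, and the study asked how it acts on cholestasis inside the liver. Strain, sex and dose are not given in the labels used here, and no group without the knockout was analysed here. The labels do not state that each library is a separate animal, so any p-value here reflects spread among libraries that may be technical in part or in whole.

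UDP-glucuronosyltransferases sit in the membrane of the endoplasmic reticulum and join glucuronic acid, taken from UDP-glucuronic acid, to lipophilic compounds, which makes them soluble enough to leave in bile or urine. The Ugt2 enzymes act on steroids, fatty acids, many drugs and, in humans, bile acids, and the liver is their main site. Transcription of Ugt genes in liver is known to depend on the hepatocyte factors HNF1 and HNF4A and to respond to the receptors PXR, CAR, FXR and PPARA.

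The 8 genes form a single cluster on chromosome 5 of GRCm38, between positions 86889767 and 87424203, a span of 534.4 kb. In chromosome order they are Ugt2b34, Ugt2b1, Ugt2b35, Ugt2b36, Ugt2b5, Ugt2b37, Ugt2a3 and Ugt2b38. The minus strand carries 7 of them and the plus strand carries Ugt2b35. Ugt2b37 (ENSMUSG00000057425) lies from 87240493 to 87254804, with Ugt2b5 (ENSMUSG00000054630, 87124960 to 87140318) before it and Ugt2a3 after it. The coding sequences fall into a close group and more distant members. Ugt2b37 was 94.7% identical to Ugt2b5 and 94.1% to Ugt2b38, and Ugt2b5 was 97.0% identical to Ugt2b38. Ugt2b36 and Ugt2b35 matched Ugt2b37 at 87.1% and 85.9%, Ugt2b1 and Ugt2b34 at 73.3% and 72.7%, and Ugt2a3 at 68.0%.

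**Figure D1:**
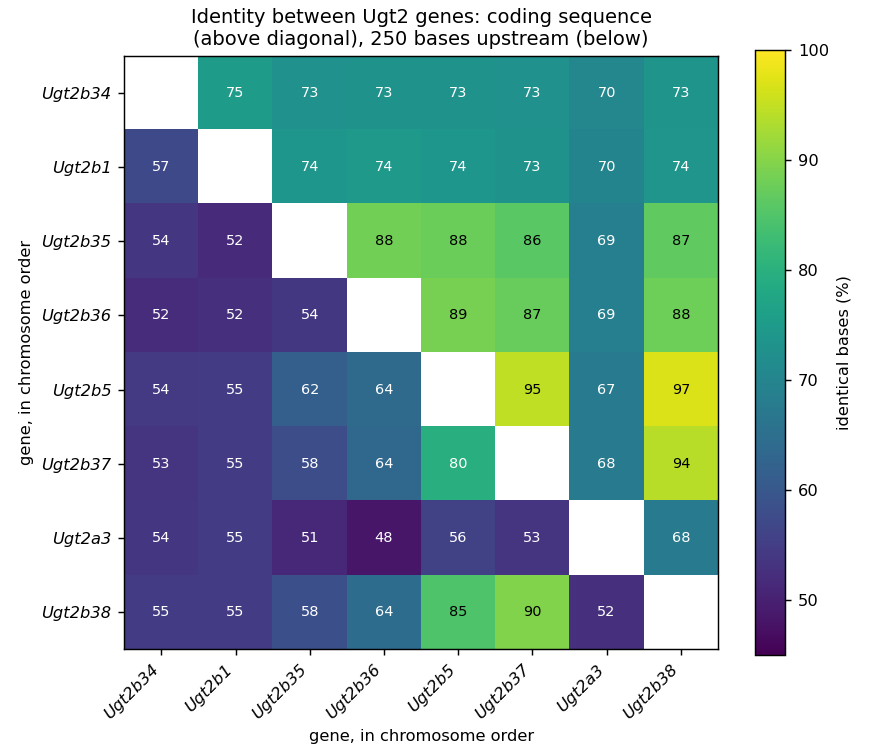
Identical bases in percent between each pair of the 8 Ugt2 genes, which run in chromosome order on both axes; squares above the diagonal compare coding sequences and squares below it the 250 bases upstream of the RefSeq start. Ugt2b5, Ugt2b37 and Ugt2b38 stand out in both, with coding identities of 94.1% to 97.0% and upstream identities of 79.6% to 89.6%.

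Such likeness matters for the counting of reads, so stretches shared between transcripts were searched across all GENCODE M21 transcripts. Of the 1795 stretches of 100 bases in the Ugt2b37 transcript, 19 (1.06%) occurred without mismatch in a transcript of another gene, namely Ugt2b5 and Ugt2b38. Ugt2b5 shared 434 of its 1759 stretches (24.7%), all of them with Ugt2b38. Ugt2b34 and Ugt2a3 shared 12 stretches with each other, and Ugt2b1, Ugt2b35 and Ugt2b36 shared 0. Read length, and how reads with several matches were treated, were not given in the sources used here. Values of Ugt2b5 and Ugt2b38 are thus the most exposed to shared reads, and those of Ugt2b37 rest largely on sequence of its own at this length.

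The upstream sequences of the close group are shown because these genes are close relatives whose levels differed widely in these livers. Each is the 250 bases before the RefSeq start on the minus strand of GRCm38.p6, read 5′ to 3′, at chr5:87254789-87255038 for Ugt2b37, chr5:87424204-87424453 for Ugt2b38 and chr5:87140341-87140590 for Ugt2b5. Capitals mark the 13 bases that match GTTATANNTTAAC.
Ugt2b37: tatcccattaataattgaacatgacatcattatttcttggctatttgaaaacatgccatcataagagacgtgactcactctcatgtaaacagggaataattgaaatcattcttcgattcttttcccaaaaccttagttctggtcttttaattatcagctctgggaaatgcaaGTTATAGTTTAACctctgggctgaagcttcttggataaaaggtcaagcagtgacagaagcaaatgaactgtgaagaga
Ugt2b38: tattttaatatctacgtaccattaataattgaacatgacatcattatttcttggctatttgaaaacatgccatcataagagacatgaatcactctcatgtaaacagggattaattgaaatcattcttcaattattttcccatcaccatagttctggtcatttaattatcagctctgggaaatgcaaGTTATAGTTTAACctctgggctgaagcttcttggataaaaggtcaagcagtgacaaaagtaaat
Ugt2b5: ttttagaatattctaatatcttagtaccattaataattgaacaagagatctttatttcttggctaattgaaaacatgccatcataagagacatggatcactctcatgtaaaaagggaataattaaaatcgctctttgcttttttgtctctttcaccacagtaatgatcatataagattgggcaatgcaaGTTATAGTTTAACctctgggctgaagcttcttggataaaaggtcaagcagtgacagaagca

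Ugt2b37 was 89.6% identical to Ugt2b38 and 79.6% to Ugt2b5 over these 250 bases. The windows are not in register, as the capitals begin 78, 64 and 61 bases before the start in Ugt2b37, Ugt2b38 and Ugt2b5. Bases left unpaired at the window ends count as differences, so these identities are lowered in part by where the starts are annotated. The Ugt2b37 window begins at 87254789, before the GENCODE gene end of 87254804, so part of it lies inside the annotated gene. The pattern GTTATANNTTAAC was chosen from these same promoters, as the 13-base word with 2 free bases in its middle that the most of the 8 share, after a first reading of the promoters. It occurred on either strand in 6 of 27025 mouse promoters of this length (0.0222%, 1 promoter a gene), and all 6 belonged to these genes, which follows in part from how it was chosen. The matched bases were the same in Ugt2b37, Ugt2b38 and Ugt2b5, and Ugt2b36 and Ugt2b35 shared another form.
Ugt2b37: GTTATAGTTTAAC
Ugt2b36: GTTATATTTTAAC
Ugt2b1: GTTATATGTTAAC

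The match began 78 bases before the RefSeq start in Ugt2b37, 64 in Ugt2b38 and in Ugt2b36, 61 in Ugt2b5, 70 in Ugt2b35 and 89 in Ugt2b1. These distances depend on where the starts are annotated. Ugt2b34 and Ugt2a3 had no match to these letters, though Ugt2b34 held gttacactttaac, which departs from the pattern only in the c after gtta. The HNF1 core was searched only as the exact letters GTTAAT. On either strand these were in 6.52% of promoters and in 1 of the 8 genes, Ugt2a3. Other forms of HNF1 sites were not searched, so the lack of these letters does not show that a promoter lacks such a site. The hormone receptor core AGGTCA, on either strand, was in 5 of the 8 genes, Ugt2b37, Ugt2b38, Ugt2b5, Ugt2b36 and Ugt2b35, against 13.8% of all promoters, and did not overlap the capitals. TATAAA was in 0 of the 8 and in 12.97% of all promoters. These matches describe letters in a window and not binding.

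The deposited values are in TPM, which are scaled by transcript length, so levels can be compared between genes. Abcb4, the targeted gene, was at 8.96, 8.32 and 32.2 TPM in lycorine and 43.5, 10.8 and 12.25 TPM in vehicle, and a gene-level value does not show which part of its transcript remains. Libraries differed in makeup, and vehicle 3 stood apart. Protein-coding nuclear genes held 69.5% to 78.1% of TPM in lycorine and 51.5% to 71.5% in vehicle, lowest in vehicle 3. The summed level of 17 hepatocyte markers such as albumin was 67642 to 100797 TPM in lycorine and 35620 to 81160 TPM in vehicle, again lowest in vehicle 3. Trf was its largest term in each library, at 40813, 26876 and 22038 TPM in lycorine and 21133, 18263 and 9857 TPM in vehicle. Hepatocyte marker scaling, which divides by this sum, thus depends heavily on Trf. TPM hold no depth, which is therefore unknown here. In a limma fit on log2(TPM + 1) over the 13854 rows that averaged 1 TPM or more, the median log2 difference over the rows was 0.22, against -0.002 once libraries were scaled by median of ratios. That fit called 0% of the rows at a Benjamini-Hochberg adjusted p under 0.05, and 476 rows (3.44%) had an unadjusted p under 0.05, with 386 higher (2.79%) and 90 lower (0.65%) in the lycorine group. With median-of-ratios scaling that split was 132 higher and 183 lower.

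Ugt2b37 had by far the widest separation of the 8 genes. It was at 72.6, 50.4 and 46.9 TPM in lycorine 1 to 3, against 6.28, 11.3 and 6.72 TPM in vehicle 1 to 3. The lowest lycorine library was thus well above the highest vehicle library. The means were 56.6 ± 13.9 TPM in lycorine and 8.09 ± 2.77 TPM in vehicle (SD, n = 3 each), a ratio of 7.0. Its log2 fold change was 2.68 (SE 0.34), higher than that of 99.9% of the tested rows, which is the value the family was chosen on. In bulk liver RNA, more cells that make a transcript and more transcript per cell cannot be told apart.

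**Figure D2:**
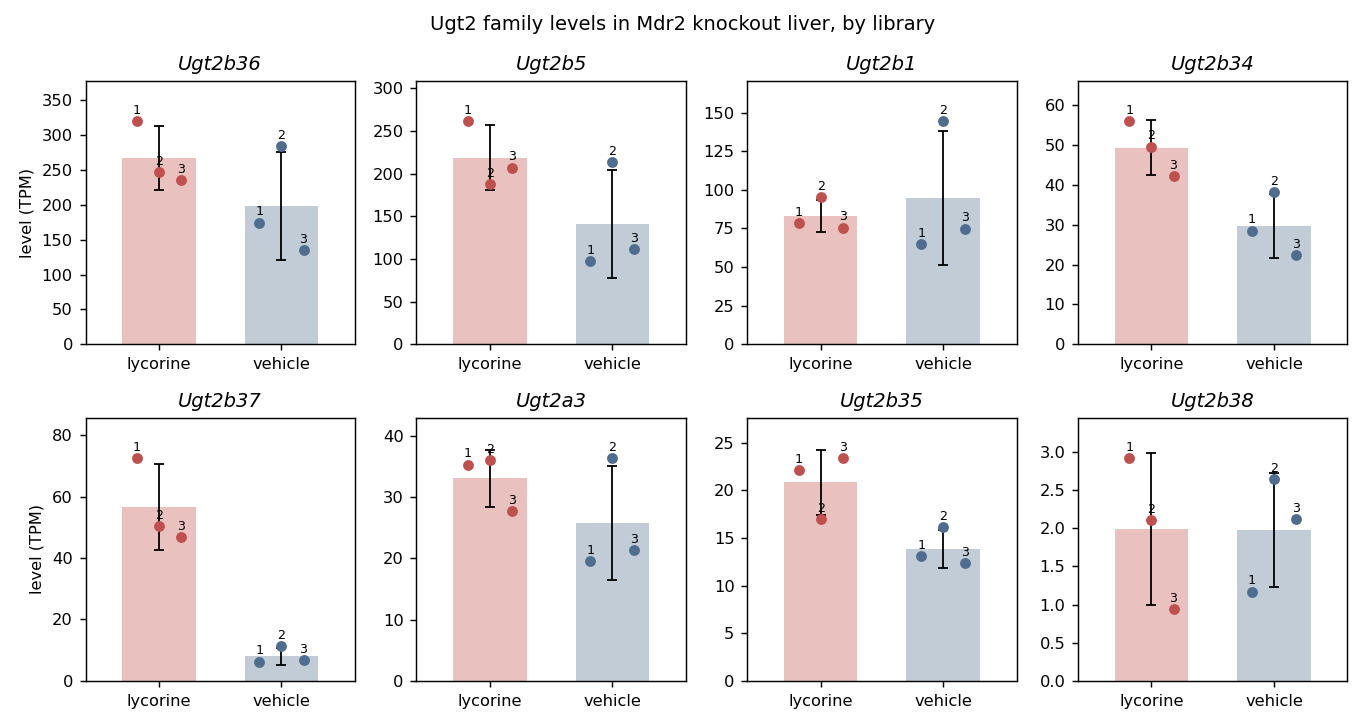
Level in TPM (vertical axes, each from 0 and with its own scale) of the 8 Ugt2 genes, ordered by mean level; points are libraries with their replicate number, bars are group means and error bars the SD of 3 libraries. Ugt2b37 sat at 46.9 to 72.6 TPM in lycorine and 6.28 to 11.3 TPM in vehicle, and in every panel vehicle 2 is the highest vehicle library.

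The abundant members were Ugt2b36, Ugt2b5 and Ugt2b1, in this order in each of the 6 libraries. Ugt2b36 (ENSMUSG00000070704, 87065927 to 87092555) was at 320.1, 247.1 and 235.2 TPM in lycorine and 174.6, 284.3 and 134.7 TPM in vehicle. Vehicle 2 lay among the lycorine libraries, so the groups overlapped. The log2 fold change of Ugt2b36 was 0.49 (SE 0.35), and it was 0.25 without vehicle 3, 0.78 without vehicle 2 and 0.20 with median-of-ratios scaling.

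Ugt2b5 was at 261.4, 187.9 and 207.05 TPM in lycorine and 97.2, 213.8 and 111.3 TPM in vehicle. Again vehicle 2 lay within the lycorine range and the other vehicle libraries below it. Its log2 fold change was 0.71 (SE 0.37), and it was 0.42 with median-of-ratios scaling. Ugt2b1 (ENSMUSG00000035836, 86916638 to 86926530) was at 78.5, 95.2 and 75.5 TPM in lycorine and 64.7, 144.6 and 74.95 TPM in vehicle. Its highest value was in vehicle 2, the groups overlapped, and a log2 fold change of -0.10 (SE 0.37) became 0.24 without vehicle 2. Ugt2b1 was the only member besides Ugt2b38 with a log2 fold change below 0.

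The middle members were Ugt2b34, Ugt2a3 and Ugt2b35. Ugt2b34 (ENSMUSG00000029260, 86889767 to 86906937) was at 56.0, 49.6 and 42.2 TPM in lycorine and 28.5, 38.3 and 22.4 TPM in vehicle. Every lycorine library lay above every vehicle library, by 3.93 TPM at the nearest, and the log2 fold change was 0.73 (SE 0.31). Ugt2b35 (ENSMUSG00000035811, 87000860 to 87013275) was at 22.1, 17.0 and 23.4 TPM in lycorine and 13.1, 16.1 and 12.4 TPM in vehicle. Its groups also did not overlap, with lycorine 2 and vehicle 2 close to each other, and its log2 fold change was 0.55 (SE 0.28). Ugt2a3 (ENSMUSG00000035780, 87324972 to 87337195), whose human counterpart has been described as a bile acid glucuronosyltransferase, was at 35.3, 36.04 and 27.8 TPM in lycorine and 19.55, 36.4 and 21.3 TPM in vehicle. Vehicle 2 was the highest of its 6 libraries, and the log2 fold change was 0.39 (SE 0.33).

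Ugt2b38 (ENSMUSG00000061906, 87409942 to 87424203) was barely above the filter, at 2.92, 2.11 and 0.94 TPM in lycorine and 1.17, 2.64 and 2.12 TPM in vehicle. The groups overlapped and the log2 fold change was -0.02 (SE 0.42), with either sign among the alternatives, from -0.40 to 0.31. The ratio of Ugt2b37 to Ugt2b38, its nearest relative by upstream sequence, was 24.9, 23.9 and 49.9 in lycorine and 5.37, 4.27 and 3.17 in vehicle. A gene that shares most of its upstream and coding sequence with Ugt2b37 was thus near the filter in both groups. Because Ugt2b38 shares many stretches with Ugt2b5, its own level is uncertain.

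All 8 members passed the filter of a mean of 1 TPM. Groups did not overlap in 3 of the 8, Ugt2b37, Ugt2b34 and Ugt2b35, all higher in lycorine, and in 0 with lycorine lower; of all tested rows 9.6% were separated upward and 1.01% downward. With the other scalings the separation of Ugt2b37 remained in every case examined, while Ugt2b34 remained separated with protein-coding genes alone and overlapped with median-of-ratios and hepatocyte marker scaling. Ugt2b35 overlapped under all 3 of these scalings. The median log2 fold change of the 8 genes was 0.52, against 0.22 for all tested rows. Rows averaging 5 TPM or more, as all members but Ugt2b38 did, had a median of 0.32. The median of the 8 genes and the counts given here include Ugt2b37, on which the family was chosen. Log2 fold changes were above 0 in 6 of the 8 genes and in 69.9% of all tested rows, and above 0.5 in 4 of the 8 genes and 21.4% of all tested rows.

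The order of the members was the same in every library of a group, and it differed between the groups only in the place of Ugt2b37. In each lycorine library it had rank 4, after Ugt2b36, Ugt2b5 and Ugt2b1 and before Ugt2b34, Ugt2a3, Ugt2b35 and Ugt2b38. In each vehicle library it had rank 7, below Ugt2b35 and above Ugt2b38. Taken over the libraries of lycorine, the ranges of Ugt2b36 and Ugt2b5 overlapped, as did those of Ugt2b37 and Ugt2b34, and the other neighbours were apart. Over the vehicle libraries the ranges of Ugt2b36 and Ugt2b5, of Ugt2b5 and Ugt2b1 and of Ugt2b34 and Ugt2a3 overlapped.

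The share of Ugt2b37 in the summed Ugt2 level does not depend on the scaling between libraries. Ugt2b37 made up 8.55%, 7.35% and 7.12% of the summed level in lycorine and 1.55%, 1.51% and 1.74% in vehicle. All 3 lycorine libraries were therefore well above all 3 vehicle libraries, with little spread within a group, also in vehicle 2 and vehicle 3. The mean share was 7.67% ± 0.767 in lycorine and 1.6% ± 0.124 in vehicle (SD, n = 3 each), a difference of 6.07 percentage points. The share of Ugt2b1 was 9.25%, 13.9% and 11.5% in lycorine and 15.97%, 19.3% and 19.4% in vehicle, so it was lower in each lycorine library. Shares sum to a fixed total, so part of this follows from Ugt2b37 itself. Ugt2b36 kept the largest share, at 36.5% ± 1.08 in lycorine and 38.7% ± 4.14 in vehicle, followed by Ugt2b5 at 29.9% ± 2.15 and 27.1% ± 2.74 (SD, n = 3 each).

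**Figure D3:**
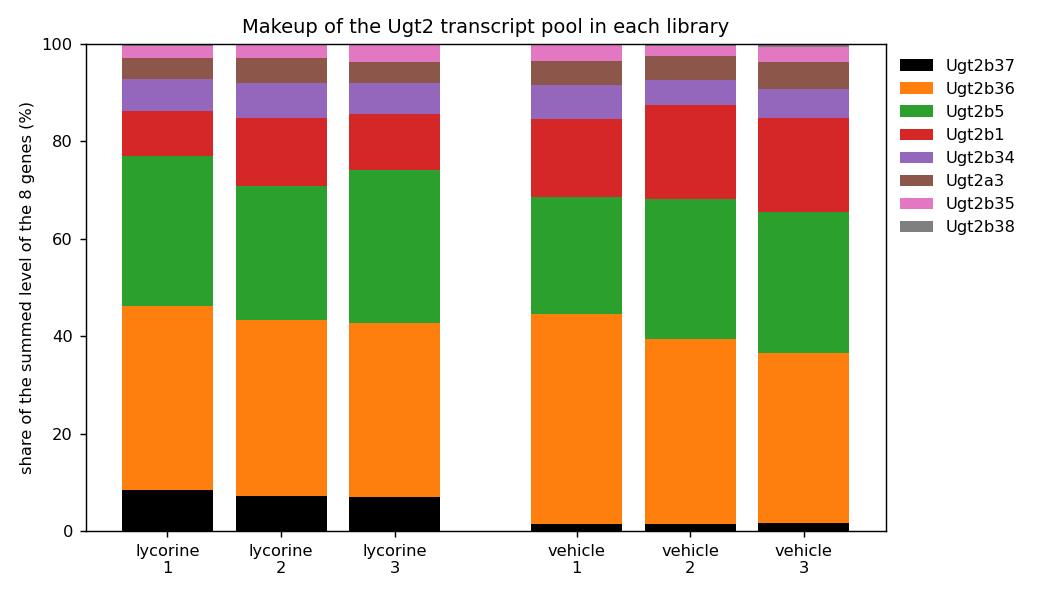
Share in percent of each Ugt2 gene in the summed TPM of the 8 genes (vertical axis), in the 3 lycorine libraries on the left and the 3 vehicle libraries on the right. The black segment, Ugt2b37, covers 7.12% to 8.55% in lycorine and 1.51% to 1.74% in vehicle, while Ugt2b36 and Ugt2b5 make up most of every bar.

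The summed level of the 8 genes was 849.0, 685.4 and 659.0 TPM in lycorine and 405.1, 747.4 and 385.9 TPM in vehicle. The groups overlapped through vehicle 2, which held the highest vehicle value in 8 of 8 members. The log2 fold change of the sum was 0.57, and it was 0.88 without vehicle 2 and 0.08 when values were divided by the hepatocyte marker sum. With that scaling the log2 fold change of Ugt2b36 was 0.00003 and that of Ugt2a3 was -0.09, whereas Ugt2b37 had 2.22. Ugt2b34, Ugt2b5 and Ugt2b35 had 0.25, 0.22 and 0.08, and Ugt2b38 and Ugt2b1 had -0.40 and -0.59. The median of all tested rows with that scaling was -0.18, against 0.22 in the main fit. The part of hepatocyte RNA content in the other members' differences was not tested.

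**Figure D4:**
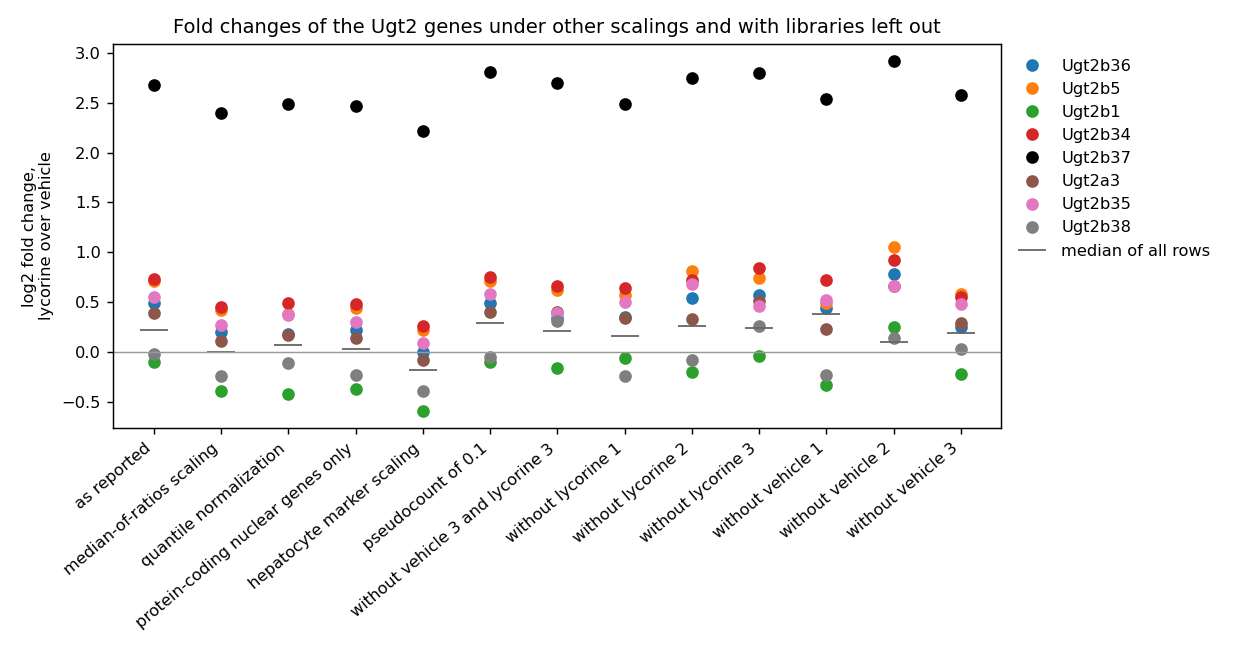
Log2 fold change of lycorine over vehicle (vertical axis) of the 8 Ugt2 genes as reported, under other scalings and with libraries left out (horizontal axis); the short grey line is the median of all tested rows in the same setting. Ugt2b37 stays between 2.22 and 2.92, while the other members move with the scaling and Ugt2b1 is above 0 only without vehicle 2.

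Across the 6 libraries, the log2 level of Ugt2b36 had a Pearson correlation of 0.92 with both Ugt2b5 and Ugt2b34, and Ugt2b37 had 0.92 with Ugt2b34, 0.82 with Ugt2b5, 0.15 with Ugt2b38 and 0.02 with Ugt2b1. These describe 6 libraries that share the group difference and the scaling. Among 10930 other rows with a proper gene name, the patterns most like Ugt2b37 were those of Upb1 (r = 0.988), an enzyme of pyrimidine breakdown, Ces1g (r = 0.984), a carboxylesterase, and Dhdh (r = 0.984), a dihydrodiol dehydrogenase. Their log2 fold changes were 0.50, 0.81 and 0.53, smaller than that of Ugt2b37. The patterns most like Ugt2b36, the most abundant member, included those of Klf15 (r = 0.998), a transcription factor of hepatic metabolism, and of Ndufaf2 (r = 0.988), an assembly factor of respiratory complex I. Klf15 was at 54.6, 39.9 and 33.8 TPM in lycorine and 21.9, 47.1 and 15.3 TPM in vehicle, and like Ugt2b36 it was high in vehicle 2. The log2 fold changes of Klf15 and Ndufaf2 were 0.71 and 0.44.

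The other UDP-glycosyltransferases gave no call. Of 14 listed genes 9 passed the filter, 0 passed the limma test in either direction, 6 had a log2 fold change above 0 and 3 below 0, with a median of 0.34. Of all tested rows 69.9% were above 0, with a median of 0.22, so the count above 0 was near that share. At an unadjusted p under 0.05 there was 1, Ugt1a10, at 3.03, 7.99 and 4.22 TPM in lycorine and 2.61, 1.19 and 0.40 TPM in vehicle, or 1.36 as a log2 fold change with an SE of 0.48 (limma adjusted p = 0.832). Ugt1a1, the enzyme that conjugates bilirubin, was at 10.7 ± 2.60 TPM in lycorine and 12.4 ± 4.08 TPM in vehicle, and Ugt1a7c, the most abundant of these genes, at 147.8 ± 19.3 TPM and 119.2 ± 31.9 TPM (SD, n = 3 each). Ugt1a6a and Ugt1a6b, enzymes of phenol conjugation, had log2 fold changes of 0.36 and 0.54, Ugt1a8 had 0.92 and Ugt1a9 -0.05. The genes of the Ugt1a locus share all exons but their first, so reads can be split among them and their values are uncertain. Ugt3a1 and Ugt3a2, which use other sugars, had log2 fold changes of 0.23 and -0.35. Ugt2a1 and Ugt2a2, which overlap each other just beyond Ugt2b38, were listed at 0 in all 6 libraries.

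Glucuronidation also needs the sugar donor. Of 12 listed genes of UDP-glucuronic acid supply and of glucuronate use and release, 11 passed the filter and 0 passed the limma test, 10 had a log2 fold change above 0 and 1 below 0, with a median of 0.43 against 0.22 for all tested rows, and 1 gene at an unadjusted p under 0.05. That gene was Gulo, the last enzyme of vitamin C synthesis from glucuronate, at 225.4, 165.0 and 161.6 TPM in lycorine and 97.6, 105.7 and 55.6 TPM in vehicle. The groups were apart, and the log2 difference of 1.12 had an SE of 0.34 (limma adjusted p = 0.832). Groups did not overlap in 4 of the 11 tested genes, Gulo and Pgm1 among them, all higher in lycorine. Of all tested rows 9.6% were separated upward, 69.9% had a log2 fold change above 0 and 3.44% had an unadjusted p under 0.05 in limma. Rgn, which acts just before Gulo, and Pgm1, which interconverts glucose phosphates, had log2 fold changes of 0.72 and 0.46 (limma adjusted p = 0.832 for each). Ugdh, the enzyme that makes UDP-glucuronic acid, was at 13.1 ± 3.83 TPM in lycorine and 10.9 ± 3.22 TPM in vehicle, and Slc35d1, its transporter into the endoplasmic reticulum, at 19.4 ± 6.84 TPM and 15.6 ± 9.09 TPM (SD, n = 3 each). The last pair was singled out for its role after the values had been seen.

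Sulfotransferases, which share many substrates with Ugt enzymes, and organic anion transporters, which carry glucuronides, gave 0 calls in limma among 9 and 9 tested genes. Sult1b1, a sulfotransferase gene next to the Ugt2 cluster on chromosome 5, was at 9.01, 9.91 and 10.1 TPM in lycorine and 4.64, 8.01 and 6.09 TPM in vehicle, with separate groups and a log2 difference of 0.58 with an SE of 0.29 (limma adjusted p = 0.832). Sult5a1 and Sult2a8 had log2 fold changes of -1.11 and 0.63, with overlapping groups in both. Sult5a1 was at 2.63, 2.87 and 6.44 TPM in lycorine and 7.99, 4.68 and 19.5 TPM in vehicle. Without vehicle 3 its log2 fold change was -0.60. Abcc3, the basolateral exporter of glucuronides, was the 1 transporter at an unadjusted p under 0.05, at 77.2, 43.9 and 74.5 TPM in lycorine and 48.2, 31.0 and 18.5 TPM in vehicle, and its groups overlapped. The log2 difference of 1.04 had an SE of 0.42 (limma adjusted p = 0.832), and the importers Slco1b2 and Slco2b1 had 0.58 and 0.54.

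Of 12 listed receptors and factors known to act on Ugt genes, 11 were tested and 0 passed in limma, with 1 unadjusted p under 0.05. Log2 fold changes were above 0 in 7 and below 0 in 4, while 69.9% of all tested rows were above 0. The list had a median of 0.13, below the 0.22 of all tested rows. Cebpa, a hepatocyte transcription factor, was at 107.7, 104.2 and 64.0 TPM in lycorine and 55.4, 61.5 and 28.0 TPM in vehicle, or 0.95 as a log2 difference with an SE of 0.40 (limma adjusted p = 0.832). Its groups were narrowly apart. Nr1h4, the bile acid receptor FXR, and its partner Rxra also had separate groups. Groups did not overlap in 3 of the 11 tested, all higher in lycorine, and 9.6% of all tested rows were separated upward. The log2 fold changes of Nr1h4 and Rxra were 0.55 and 0.43. The xenobiotic receptors Nr1i2 (PXR) and Nr1i3 (CAR) had -0.36 and 0.13, with overlapping groups, and were singled out after their values had been seen.

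Markers of other liver cells were read beside these results. Of all tested rows 69.9% had a log2 fold change above 0. At an unadjusted p under 0.05 in limma, 2.79% of all tested rows were higher and 0.65% lower in lycorine. Of 11 tested Kupffer cell markers 11 had a log2 fold change below 0, with 0 passing in limma and 5 at an unadjusted p under 0.05, and the summed level of the 12 listed was 163.6 to 454.8 TPM in lycorine and 258.3 to 645.6 TPM in vehicle. Fcna, Vsig4 and Cd5l, genes of resident macrophages, had log2 fold changes of -1.86, -1.26 and -1.74. Of 9 tested sinusoidal endothelial markers 9 were below 0, 0 passed in limma, 1 reached an unadjusted p under 0.05, the sum of the 12 listed was 61.2 to 104.3 TPM in lycorine and 57.9 to 171.8 TPM in vehicle, and Clec4g, Mrc1 and Ehd3 had -1.21, -1.62 and -0.66. Mrc1 was at 3.29, 1.64 and 1.56 TPM in lycorine and 4.37, 3.39 and 35 TPM in vehicle, and without vehicle 3 its log2 fold change was -0.66. None of the markers in these 2 lists was at 0 in all libraries. Of 17 hepatocyte markers 13 were above 0 and 4 below, 0 passed, and 3, Cyp2e1, Trf and Apoh, had an unadjusted p under 0.05 in limma, with log2 fold changes of 0.72, 0.89 and 0.61. The median of the hepatocyte list was 0.24, near the 0.22 of all tested rows. It was below the median of 0.32 for rows averaging 5 TPM or more, as all of these markers did. Serpina1a and Serpina1e, which make the serum antiprotease alpha-1-antitrypsin, had log2 fold changes of -0.43 and -0.41 and were singled out after their values had been seen. Bile duct, stellate and fibroblast, lymphocyte and red blood cell markers gave 0 calls, with median log2 fold changes of 0.25, 0.13, -0.35 and -0.09. The part of cell makeup in the Ugt2 values was not tested.

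**Figure D5:**
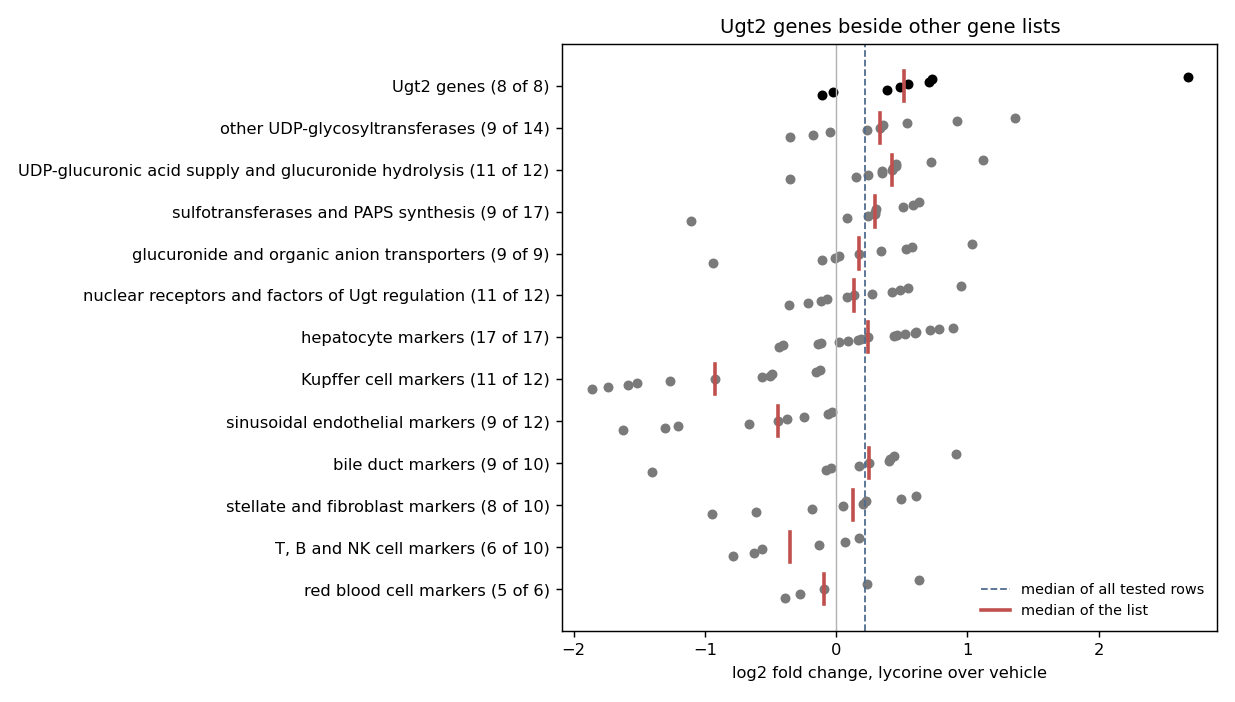
Log2 fold change of lycorine over vehicle (horizontal axis) for each tested gene of 13 lists, with tested and listed numbers in parentheses; black points are the Ugt2 genes, red bars list medians and the dashed line the median of all tested rows, 0.22. Ugt2b37 lies farthest to the right at 2.68, the other Ugt2 genes lie between -0.10 and 0.73, and all tested Kupffer cell and sinusoidal endothelial markers lie below 0.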

How the data were processed

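Liver RNA of 6 libraries was measured, 3 from lycorine-treated and 3 from vehicle-treated Mdr2 knockout mice. The authors deposited 1 table whose name speaks of FPKM, but each column sums to 1000000 within rounding, so the deposited values are TPM with 2 decimals; the planned test was kept for them. GRCm38 and mm10 are the builds listed in the submitters' processing notes. Aligner, quantifier and gene models were not given in the sources used here. Vehicle columns carry only genotype and number and were assigned because no other group remained. Names and coordinates came from GENCODE M21 (52083 of 55416 identifiers matched; 3185 assembled loci have no name), and promoters from RefSeq on GRCm38.p6, with 8 of 8 genes matched.

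The 13854 rows averaging 1 TPM or more were transformed to log2(TPM + 1), so folds of low genes are understated, and compared with limma 3.58.1 (R 4.3.3) in two-sided tests that let the variance follow the mean, Benjamini-Hochberg adjusted across the whole set at a threshold of 0.05. Coding sequences and upstream regions were aligned globally with Biopython 1.88 (Python 3.11.15), and identity is given over the longer sequence. Depth is unknown. The genes and the 13 lists were chosen with earlier results of these data known. Named genes were the 8 members, the other UDP-glycosyltransferases that passed the filter, at most 3 per list by smallest p, and the 3 rows most like Ugt2b37 and Ugt2b36, of which 1 is not reported here. Outside this rule, Abcb4 was given as the targeted gene, and Ugdh, Slc35d1, Nr1i2, Nr1i3, Serpina1a, Serpina1e, Ugt2a1, Ugt2a2 and 3 pseudogenes of the cluster were named after their values had been seen. Alternatives covered pseudocount, filter, scaling, variance model, library weights, a replicate block and left-out libraries.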

Additional observations from a re-analysis of the deposited data

How the results depend on the processing

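Of 779 recomputed values, 744 kept their direction and side of the threshold, or moved by less than the spread between libraries. Part of this count was fixed in advance. Another filter, a variance that does not follow the mean and a replicate block cannot change the log2 fold change of a tested gene. For the recomputed genes outside the family the adjusted p in limma stayed above 0.05 in every setting, so none changed side. The count is therefore not a measure of how robust the values are. The log2 fold change of Ugt2b37 ranged from 2.49 to 2.92 with single libraries left out and was 2.22 with hepatocyte marker scaling, where that of the summed Ugt2 level was 0.080. With single libraries left out the summed level ranged from 0.40 to 0.88, and the Ugt2b37 share difference from 5.64 to 6.35 percentage points. Calls over all rows numbered 1 with array quality weights, 1 at a pseudocount of 0.1, and 0 to 2 with single libraries left out. Deviations from group means correlated at 0.31, 0.05 and 0.29 between same-numbered libraries of the 2 groups, and at -0.34 to 0.21 between differently numbered ones. For each lycorine library the same-numbered vehicle library had the highest value. The main fit did not pair libraries, and whether the numbers mark pairs was not settled. With a replicate block 0 rows were called in limma, and 1033 had an unadjusted p under 0.05 against 476 without it. The block cannot change a log2 fold change when each number occurs once per group, so Ugt2b37 necessarily kept 2.68.

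Signs turned in some weak values, and the cause was not tested. With hepatocyte marker scaling Ugt1a7c had -0.15, Ugt1a6a -0.10, Ugt3a1 -0.24, Pgm1 -0.021, Rxra -0.054 and Ndufaf2 -0.023. Ugt3a1 had -0.049 with median-of-ratios scaling, -0.024 with protein-coding genes alone and -0.10 with array quality weights, where Ugt1a9 had 0.039. Without vehicle 3 and lycorine 3, Ugt1a8 had -0.023, Ugt1a1 0.11 and Ugt1a9 0.33. With single libraries left out, Ugt1a6a ranged from -0.081 to 0.84, Ugt3a1 from -0.14 to 0.58, Ugt1a1 from -0.45 to 0.021 and Ugt1a9 from -0.30 to 0.29. Depth is unknown from TPM, so what it limits was not measured.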

Other observations

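Inside the Ugt2 cluster lie 17 further annotated rows, 15 of them pseudogenes, and 9 of the 17 were listed at 0 in all 6 libraries. A mean of 1 TPM was reached by 3, all pseudogenes. Gm7631 was listed at 0, 5.56 and 0 TPM in lycorine and 1.56, 0 and 15.6 TPM in vehicle. Gm18635 was at 1.78, 2.99 and 5.49 TPM in lycorine and 2.02, 1.74 and 0.75 TPM in vehicle, and Gm21049 at 0.68, 2.58 and 4.14 TPM in lycorine and 1.77, 0.78 and 4.95 TPM in vehicle. The groups overlapped in each.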
